A study of Macaca mulatta with 8 samples.

Results

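Endogenous naive-like regulatory T cells (Tregs) are, in these data, the cells to which the authors' deposited annotation gives the name endo_Naive_Tregs. They numbered 1271 of 25397 cells. The sort gated as CD25high CD127low, the surface phenotype of Tregs, held 412 of them on day 20 and 798 on day 3, which was 17.6% (16.1 to 19.2) of 2343 cells and 23.8% (22.4 to 25.3) of 3347 cells. The other 61 carried the same name in the CFSE-positive libraries, 40 on day 20 and 21 on day 3, and are described apart from the rest. The series profiled single CD4-enriched cells from cryopreserved blood of rhesus macaques by droplet sequencing on 2 days, with 4 sorted populations and 1 library for each population and day. The labels give neither the animal behind a library nor a treatment. Endogenous naive-like Tregs of the CD25high CD127low sort were set against 3 classes of the same days. Endogenous effector Tregs (444 cells on day 20 and 461 on day 3) and the cells of the authors' Tconv class (1356 and 2037) came from the same 2 libraries. Transferred naive-like Tregs (985 and 123 cells) came from the CFSE-positive libraries, CFSE being a dye that marks labelled cells, and the series title is the ground for taking that sort as the transferred cells. The CD127-positive CD25-negative libraries (3677 and 3037 cells), the conventional CD4 phenotype, served as background.

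Tregs are the CD4 T cells that hold other lymphocytes in check, and the transcription factor FOXP3 specifies them. They depend on interleukin 2, which they bind through CD25, the product of IL2RA, and which signals through STAT5, while CD127, the interleukin 7 receptor chain encoded by IL7R, is low on their surface. Naive or resting Tregs recirculate through lymph nodes and keep the transcription factors TCF7 and LEF1. Effector Tregs arise from them after antigen contact, carry more of the suppressive receptors and switch on genes for entry into tissues.

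With 1 library per population and day there was no replicate, so no p-value was computed, and the 95% intervals in parentheses, exact Poisson for levels and exact binomial for shares, stand for counting error alone. Levels are counts of UMIs, each a tagged RNA molecule, summed over the cells of a class and scaled to the same total in every class (CPM). Ratios are log2 ratios of CPM plus 10, which understates the change of low genes, and a gene is called higher or lower at 2-fold or more with at least 50 CPM in a compared class. The members gave 1144064 UMIs on day 20 and 2639307 on day 3, with medians of 2712.5 and 3196.5 UMIs and 819 and 872 genes per cell. The median cell of the effector class had 2457.5 UMIs on day 20 and 3363 on day 3, with 912.5 and 1168 genes. Cells with several UMIs of another blood cell type or with very high totals, treated here as doublet-like, made up 3.88% of the members on day 20 and 7.77% on day 3, against 19.1% and 25.8% of the effector class. Any pair of the 8 libraries shared 2 to 31 cell barcodes, and 36 members had a barcode that also occurred in another library.

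The label was set beside the defining markers first. The annotation rests on these cells' expression, so the levels describe the named class and are no independent check of it. FOXP3 (ENSMMUG00000008624) stood at 64.7 CPM (50.8 to 81.2) on day 20 and 110.3 CPM (97.95 to 124) on day 3 in naive-like Tregs. Endogenous effector Tregs had 203 CPM (179.6 to 229) and 235 CPM (212 to 259.7), transferred naive-like Tregs 127 CPM (114 to 142) and 142 CPM (103 to 190.1), and the Tconv class of the same sort 16.9 CPM (13.03 to 21.6) and 17.5 CPM (14.4 to 21.1). The conventional libraries had FOXP3 at 0.246 and 0.53 CPM. Naive-like Tregs therefore lay between the Tconv and effector classes on both days, and below transferred naive-like Tregs with intervals that overlapped on day 3 but not on day 20.

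IL2RA (ENSMMUG00000015151), the CD25 chain of the interleukin 2 receptor, followed the same order among the endogenous classes. It was at 281 CPM (251 to 313) on day 20 and 492 CPM (465 to 519) on day 3 in naive-like Tregs, at 387 and 766 CPM in effector Tregs and at 121 and 122 CPM in the Tconv class. IL7R (ENSMMUG00000001676), encoding CD127, read 263 CPM (234 to 295) on day 20 and 159 CPM (144 to 175) on day 3 in naive-like Tregs. That was above effector Tregs, at 188 and 126 CPM, and below the Tconv class, at 638 and 585 CPM. Both genes code for the surface proteins that the sort gated on, so their levels against cells of another sort are not independent of the gate. Within the sort the classes passed the same gate.

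The word naive in the label was set beside transcription factors of naive T cells, which are likewise no independent check. LEF1 was at 183 and 160.3 CPM, near the Tconv class (139 and 170.3 CPM) and well above effector Tregs (46.5 and 46.9 CPM). TCF7 was at 125 CPM (105 to 147) on day 20 and 75.8 CPM (65.6 to 87.04) on day 3, against 149 CPM (136 to 161) and 155 CPM (146 to 165) in the Tconv class, so on day 3 the members had less of it than the Tconv cells beside them. CCR7, the lymph node homing receptor usually counted among naive markers, was near 0 in every class, at 2.62 on day 20 and 2.65 on day 3 (CPM) in the members and at 2.83 and 5.303 CPM in the conventional libraries. The 4 T cell markers in the table summed to 1531 on day 20 and 1882 on day 3 (CPM) in the members, most of it CD3D, part of the T cell receptor complex, and the 2 CD8 T cell markers reached 0.874 on day 20 and 0 on day 3 (CPM) in the members.

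**Figure D1:**
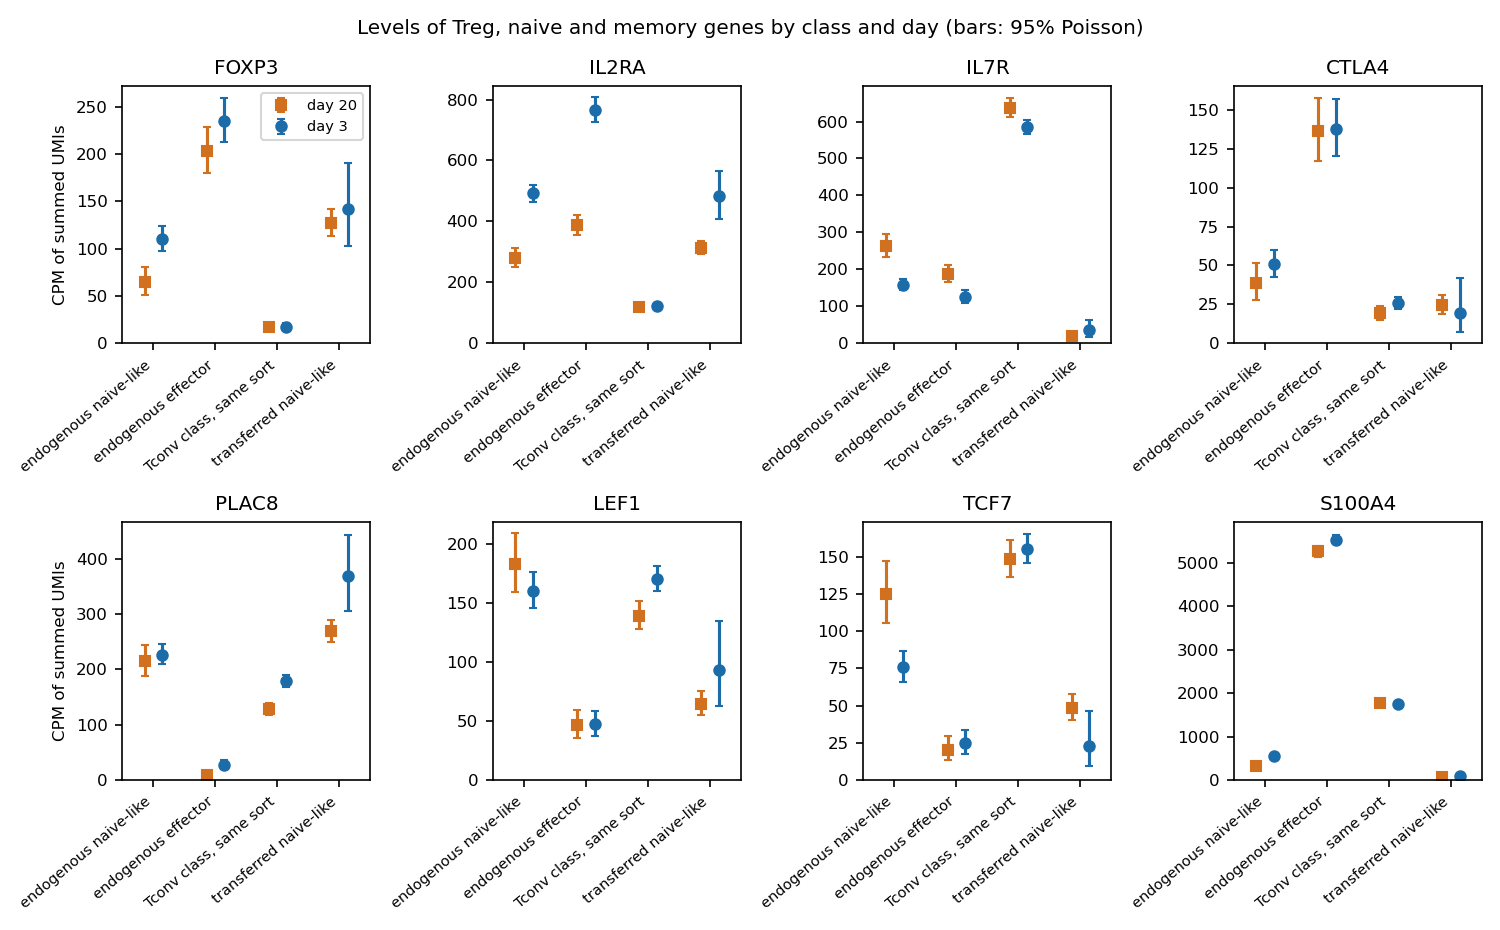
Levels in CPM of summed UMIs (linear axes from 0) of 8 genes in 4 classes, with squares for day 20, circles for day 3 and bars for 95% Poisson intervals. Endogenous naive-like Tregs sit between the Tconv and effector classes for FOXP3 and IL2RA, have more LEF1 and TCF7 than effector Tregs and stand far below effector Tregs for S100A4.

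Per cell the markers were sparse. At least 1 FOXP3 UMI was found in 16.0% (12.6 to 19.9) of members on day 20 and 26.8% (23.8 to 30.04) on day 3, against 36.5% and 47.1% of effector Tregs and 4.13% and 4.61% of the Tconv class. The conventional libraries, which should lack FOXP3 and whose cells had medians of 2185 and 2445 UMIs, gave 0.0544% and 0.132%. IL2RA was seen in 47.8% (42.9 to 52.8) of members on day 20 and 69.8% (66.5 to 73.0) on day 3, and IL7R in 43.2% (38.4 to 48.1) and 35.1% (31.8 to 38.5). After every cell was thinned to 1000 UMIs, FOXP3 was seen in 7.28% (4.97 to 10.2) of members on day 20 and 10.9% (8.82 to 13.3) on day 3. The same thinning gave 23.8% (19.8 to 28.2) and 37.0% (33.6 to 40.4) for IL2RA, and 20.9% (17.0 to 25.1) and 12.7% (10.4 to 15.2) for IL7R. With and without thinning, the day 20 shares of FOXP3 and IL2RA were lower and those of IL7R higher than on day 3. The intervals of the 2 days overlapped for FOXP3 after thinning and for IL7R before it. FOXP3 and IL2RA were both seen in 36 members on day 20 (8.74%) and 168 on day 3 (21.1%), and neither was seen in 185 (44.9%) and 195 (24.4%).

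The members were not uniform. The authors' numbered clusters put 379 of them on day 20 and 715 on day 3 in cluster 4, and the other 33 and 83, or 8.01% and 10.4%, in cluster 3. S100A4, whose calcium-binding product marks antigen-experienced T cells, stood at 1903 CPM (1615 to 2227) on day 20 and 2183 CPM (2017 to 2360) on day 3 in the cluster 3 members. The cluster 4 members had S100A4 at 211 CPM (184 to 240.3) and 349 CPM (325 to 374). The nuclear lamin gene LMNA was at 123 CPM (58.9 to 226) and 85.8 CPM (55.5 to 127) in cluster 3 members, against 8.47 CPM (3.87 to 16.1) and 11.9 CPM (7.92 to 17.2) in cluster 4 members. FOXP3 was higher in the cluster 3 members, at 147 CPM (76.1 to 257) and 165 CPM (122 to 218), against 58.3 CPM (44.7 to 74.8) and 103 CPM (90.9 to 117). IL2RA went the other way on day 3. Cluster 3 members had 357 CPM (292 to 433) of it and cluster 4 members 509 CPM (480 to 538). Its day 20 intervals overlapped, as did those of LEF1 and TCF7 on both days. LEF1 read 147 and 127 CPM in cluster 3 members and 185 and 164 CPM in cluster 4 members. TCF7 read 110 and 99.6 CPM in the former and 126 and 72.8 CPM in the latter. The cluster 3 members held 155 of the 379 S100A4 UMIs of all members on day 20 and 636 of 1455 on day 3. These genes helped to form the clusters, so the values describe the members and are no test.

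The first comparison set the members against the endogenous effector Tregs of the same libraries. Naive-like Tregs had more RNA of the naive T cell transcription factors, and less of calcium-binding S100 and annexin genes, of the Treg core and effector Treg lists and of cell cycle genes. On both days 13 of 1966 genes (0.661%) were higher by 2-fold or more and 201 (10.2%) lower. On day 20 alone, 22 of 2168 genes (1.01%) were higher and 298 (13.7%) lower, and on day 3 20 of 2156 (0.928%) and 335 (15.5%). The annotation itself rests on these cells' expression, so these counts describe how 2 named clusters differ.

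The balance of higher and lower genes depended on the scaling. The median of all genes was -0.44 on day 20 and -0.51 on day 3, and cytosolic ribosomal protein genes made up 42.8% and 42.9% of the UMIs in naive-like Tregs, against 30.9% and 28.7% in effector Tregs. TMM scaling moved the ratio of every gene by a median of 0.32 on day 20 and 0.42 on day 3, and gave 48 genes higher and 69 lower on both days. Scaling on named genes without ribosomal protein, mitochondrial and hemoglobin genes gave 70 and 66. All genes named below as having the largest ratios kept their call under both. Without the doublet-like cells 14 genes were higher and 182 lower, 13 and 163 of them the same genes.

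Among the genes higher in naive-like Tregs, PLAC8 (ENSMMUG00000022311) stood out at 215 CPM (189 to 244) in naive-like and 8.99 CPM (4.65 to 15.7) in effector Tregs on day 20, and at 227 and 27.1 CPM on day 3. Naive T cell transcription factors were in the set, with log2 ratios on day 20 and day 3 of 1.77 and 1.58 for LEF1 and of 2.16 and 1.31 for TCF7. PECAM1, the adhesion molecule CD31 found on young naive T cells in humans, was at 188 CPM (164 to 215) in naive-like and 40.5 CPM (30.4 to 52.8) in effector Tregs on day 20, with log2 ratios of 1.97 and 1.56. The calls also held PLA2G16, a phospholipase, at 2.11 and 1.81, RCN3, a calcium-binding protein of the endoplasmic reticulum, at 1.76 and 2.07, and the deubiquitinase OTUD5 at 1.60 and 1.20. DPP4, the surface peptidase CD26, was at 1.81 and 1.26, and CD69, a receptor of early activation and tissue retention, at 1.16 and 1.34. LST1 (1.69 and 1.40) and BEX4 (1.19 and 1.28) were also among the genes with the largest ratios.

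In the other direction, several transcripts abundant in effector Tregs were close to absent from the members. PRSS57 (ENSMMUG00000021555), a serine protease gene, had 1 UMI in all members of day 20, or 0.874 CPM (0.0221 to 4.87), and 4.17 CPM on day 3, against 397 CPM (364 to 432) and 419 CPM (388 to 451) in effector Tregs. CGA, the alpha chain of the glycoprotein hormones, was at 14.9 CPM (8.66 to 23.8) and 3.79 CPM in naive-like Tregs, against 734 CPM (689 to 782) and 289 CPM in effector Tregs. IL1RL1, the interleukin 33 receptor ST2 of tissue Tregs, was at 10.5 and 7.96 CPM, against 264 and 194 CPM. S100A4 was at 331 CPM (299 to 366) and 551 CPM (523 to 580.4) in naive-like Tregs, against 5272 CPM (5149.5 to 5397) and 5544 CPM (5431 to 5658) in effector Tregs, log2 ratios of -3.95 and -3.31.

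TNFRSF18, the receptor GITR, was at 27.1 CPM (18.4 to 38.5) and 33.3 CPM (26.7 to 41.1) in naive-like Tregs, against 211 CPM (187 to 237) and 259 CPM (235 to 284) in effector Tregs. PTTG1, securin of the cell cycle, had log2 ratios of -3.41 (day 20) and -3.33 (day 3), LMNA of -3.16 and -3.41, PTMS, parathymosin, of -3.63 and -3.21, and LGALS3, galectin 3, of -2.65 and -2.78. HOPX, a homeodomain protein gene, was at 12.2 and 9.09 CPM, against 209 and 104 CPM, and GNLY, the granule protein granulysin, at 2.62 CPM (0.541 to 7.66) and 4.17 CPM, against 62.9 and 83 CPM. CST3, cystatin C, a gene also abundant in monocytes, was at 2.62 CPM (0.541 to 7.66) and 5.68 CPM, against 115 and 112 CPM. The 7 monocyte markers summed to 6.12 on day 20 and 9.09 on day 3 (CPM) in the members, against 132 and 123 CPM in effector Tregs, where CST3 made up 115 and 112 CPM and 3 and 4 of the 7 markers were at 0. The 7 B cell markers summed to 74.3 and 97.8 CPM in the members, against 247 and 399 CPM in effector Tregs, with 1 to 3 markers at 0 in each. The part of such cells in the difference was not tested beyond leaving out the doublet-like cells, under which all 12 of these lower genes kept their call.

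**Figure D2:**
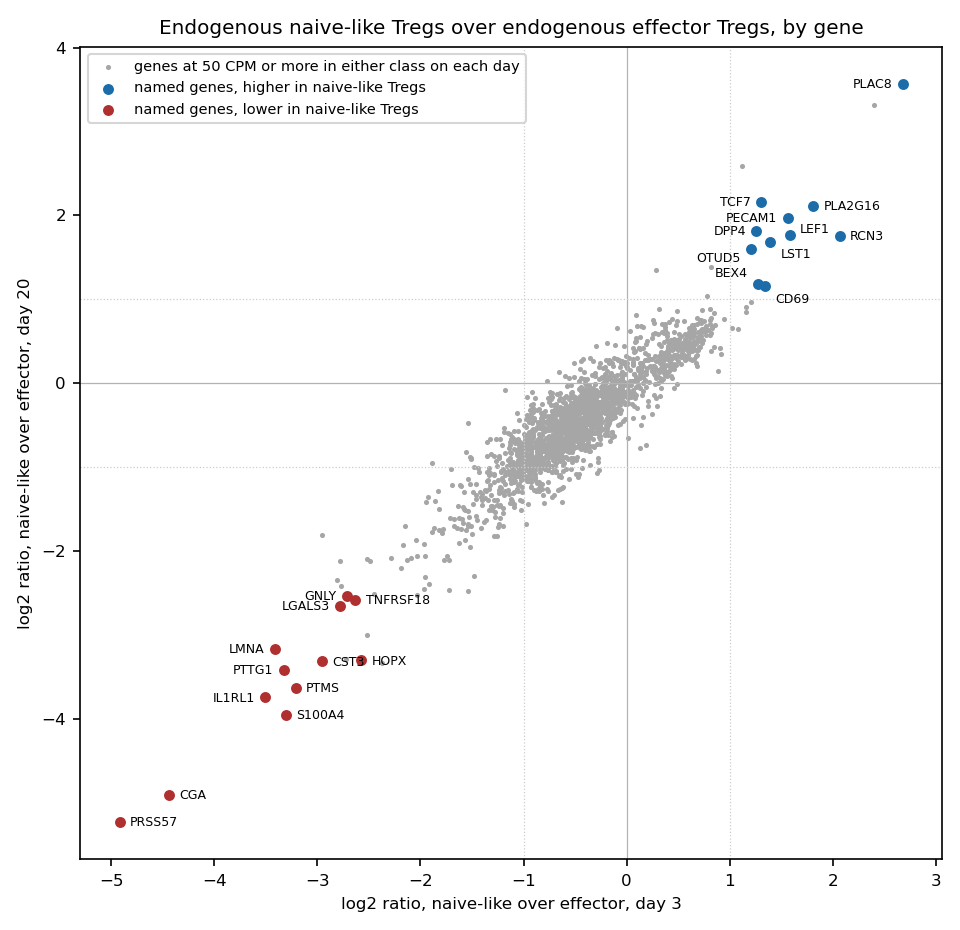
Log2 ratio of CPM plus 10 in endogenous naive-like over endogenous effector Tregs, day 3 across and day 20 up, for genes at 50 CPM or more in either class on each day. Dotted lines mark 2-fold, and the labelled genes are among those with the largest ratios on both days, from PRSS57 at the lower left to PLAC8 at the upper right.

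The gene lists showed the same contrast by function. Of the 12 measured members of the Treg core list, 6 were at least 2-fold lower and 0 higher on each day, with a median log2 ratio of -1.17 on day 20 and -0.93 on day 3 (all genes -0.44 and -0.51). FOXP3 (-1.51 and -1.03), the inhibitory receptor CTLA4 (-1.59 and -1.28) and TNFRSF1B, the tumour necrosis factor receptor 2 (-1.47 and -1.30), were in that 6 on both days. RTKN2, a gene of the same list, had 0.39 and 0.49. The list counts here are those under CPM scaling. TMM and named-gene scaling each raised the day 3 ratios of all genes by a median of 0.42. On day 3 FOXP3, CTLA4 and TNFRSF1B lay closer than that to the 2-fold line. The Treg core median became -0.85 under TMM and -0.78 under named-gene scaling on day 20, and -0.50 under both on day 3. The naive and quiescent list had 4 of 15 members higher and 1 lower on day 20 and 4 of 16 higher and 0 lower on day 3, with medians of 0.64 and 0.32. The lower one was ID3, an inhibitor of helix-loop-helix factors, at -1.25.

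Of the effector Treg and differentiation list, 8 of 12 measured members were lower on day 20 and 8 of 14 on day 3, and 0 were higher, with medians of -1.43 and -1.15. They included PRDM1, encoding Blimp-1, at 29.7 CPM (20.6 to 41.5) in naive-like and 119 CPM (101 to 139) in effector Tregs on day 20 and 81.5 and 199.7 CPM on day 3. The chemokine receptors CCR6 (-1.46 and -1.55) and CCR10 (-1.97 and -1.95) and the death receptor FAS (-1.72 and -1.25) were also lower. The wider integrin and chemokine receptor list had 2 of 9 lower on day 20 and 4 of 10 on day 3, 0 higher, with medians of -0.53 and -0.72, near those of all genes. The costimulatory and inhibitory receptor list had 3 of 9 lower on day 20 and 3 of 8 on day 3, 0 higher, with medians of -0.87 and -0.77. Of all genes at 50 CPM or more in either class, 13.7% were lower on day 20 and 15.5% on day 3. List members needed only 20 CPM. The S100, annexin and cytoskeletal list had 17 of 20 members lower on day 20 and 16 of 21 on day 3, 0 higher, and medians of -1.64 and -1.58. ANXA1, the glucocorticoid-regulated annexin, was its 1 member above 0 on each day, at 0.68 and 0.14. Proliferation genes had 6 of 10 lower on day 20 and 10 of 16 on day 3 and 0 higher, with STMN1, a microtubule regulator of dividing cells, at 78.7 and 134 CPM in naive-like Tregs, against 226 and 544 CPM in effector Tregs. Cytosolic ribosomal protein genes went the other way as a group, with 68 of 73 above 0 on day 20 and 70 of 72 on day 3, at medians of 0.43 and 0.56, although on each day 0 were called higher and 1 lower under CPM scaling. Their medians rose to 0.78 on day 20 and 1.03 on day 3 under TMM, and to 0.86 and 1.02 under named-gene scaling, past 2-fold on day 3. The medians of these 6 lists kept their sign under TMM and named-gene scaling.

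The second comparison set the members against the Tconv class that passed the same gate. Few genes passed 2-fold here. On both days 5 of 1605 genes (0.312%) were higher and 12 (0.748%) lower in naive-like Tregs. By day, 9 (0.498%) were higher and 36 (1.99%) lower of 1806 genes on day 20, and 10 (0.59%) higher and 20 (1.18%) lower of 1695 genes on day 3. The median of all genes was -0.06 on day 20 and -0.02 on day 3, and neither scaling moved it by more than 0.09.

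The 5 higher genes were mostly Treg genes. The class names rest on these cells' expression here as well, so these genes describe the named classes and are no test of the label. FOXP3 had log2 ratios of 1.47 (day 20) and 2.13 (day 3), and IL2RA of 1.15 and 1.92. RGS1 (ENSMMUG00000003486), a brake on chemokine receptor signalling, was at 198 CPM (173 to 226) and 282 CPM (262 to 303) in naive-like Tregs, against 59.7 CPM (52.2 to 68.04) and 60.95 CPM (55.03 to 67.3) in the Tconv class. CD9, a tetraspanin, was at 90.03 CPM (73.5 to 109) and 110.3 CPM (97.95 to 124), against 36.2 CPM (30.4 to 42.8) and 29.1 CPM (25.1 to 33.7). RTKN2 was at 76.9 and 91.3 CPM, against 32.8 and 40.5 CPM, a difference at the 2-fold line that was no longer called without the doublet-like cells. Of the Treg core list, 3 of 9 measured members were higher and 1 lower on day 20, and 4 of 10 higher and 0 lower on day 3. CSF1, a macrophage growth factor, was the lower one (-1.61).

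Lower in naive-like Tregs than in the Tconv class was IL7R, at -1.25 (day 20) and -1.82 (day 3) as log2 ratios. S100A4 was at 331 and 551 CPM in naive-like Tregs, against 1766 CPM (1724 to 1809) and 1741 CPM (1709 to 1774) in the Tconv class, and ANXA1 had log2 ratios of -1.30 and -1.42. ISG15, an interferon-induced ubiquitin-like protein, was at 30.6 CPM (21.3 to 42.5) and 42.4 CPM (34.9 to 51.1) in naive-like Tregs, against 223 CPM (208 to 238) and 207 CPM (196 to 219) in the Tconv class. MX1, an antiviral GTPase, had -1.53 and -1.32, and the interferon response list had 4 of 21 members lower on day 20 and 5 of 18 on day 3, 0 higher, with medians of -0.56 and -0.50. HOPX was at 12.2 and 9.09 CPM in naive-like Tregs, against 129 and 102 CPM in the Tconv class, and GNLY at 2.62 and 4.17 CPM, against 71.4 and 57.2 CPM. LMNA (-2.37 and -1.93), the protease inhibitor TIMP1 (-2.06 and -1.58), the oxygen-sensing hydroxylase EGLN3 (-1.62 and -1.17) and the leukotriene receptor CYSLTR1 (-1.04 and -1.07) made up the rest of the named genes. CYSLTR1 was not called under both scalings and without the doublet-like cells.

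The naive and quiescent list gave 0 higher and 1 lower of 15 members on day 20 and of 14 on day 3. IL7R was the lower one, and the medians were 0.37 and 0.02. Apart from IL7R, no measured naive gene passed 2-fold in these ratios, which add a fixed CPM to both levels. Before that CPM is added, TCF7 was more than 2-fold below the Tconv class on day 3, by the levels given above. S100 and annexin genes had 7 of 20 lower on day 20 and 3 of 20 on day 3, medians of -0.90 and -0.61. Red cell transcripts differed between these classes on day 3, with the 5 markers in the table summing to 205 CPM in naive-like Tregs against 2512 CPM in the Tconv class, of which HBB, the beta globin, was 40.2 and 2327 CPM. On day 20 the sums were 117 and 152 CPM. HBB did not enter the both-day calls, and its part in the day 3 values was not tested.

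**Figure D3:**
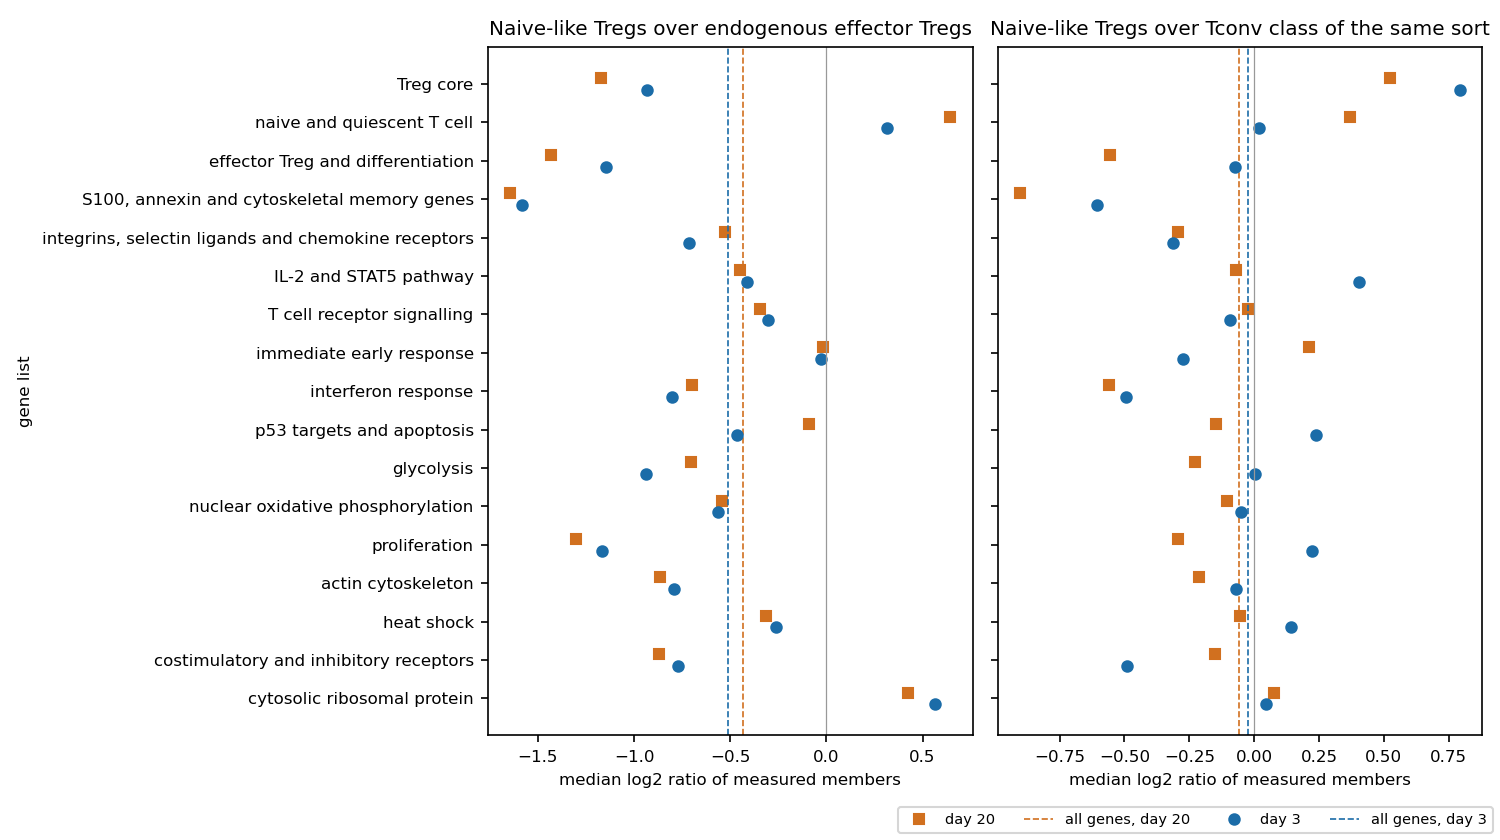
Median log2 ratio of the measured members of each gene list in endogenous naive-like Tregs over effector Tregs (left) and over the Tconv class of the same sort (right), squares for day 20 and circles for day 3, with dashed lines at the median of all genes. The S100 and annexin list stands in the left panel at -1.64 and -1.58, and the Treg core list lies below 0 on the left and above 0 on the right.

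The third comparison asked how far transferred naive-like Tregs, which carry the matching name in the CFSE-positive libraries, resembled the endogenous ones. The classes come from different libraries, so class and library cannot be told apart. On day 20, 39 of 1924 genes (2.03%) were higher and 56 (2.91%) lower in endogenous naive-like Tregs. The median of all genes was -0.20, and the counts were 51 higher and 30 lower under TMM and 53 and 28 under named-gene scaling, which moved the ratios by a median of 0.15 and 0.16. On day 3 the transferred class held only 123 cells and 310648 UMIs, and 67 of 1963 genes (3.41%) were higher and 113 (5.76%) lower. Of the day 20 calls, 18 higher and 27 lower were called the same way on day 3.

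IL7R led the genes higher in endogenous cells, at 263 CPM (234 to 295) on day 20 and 159 CPM (144 to 175) on day 3, against 20.9 CPM (15.7 to 27.3) and 35.4 CPM (17.7 to 63.4) in transferred naive-like Tregs. BCL2, the survival factor, was at 132 CPM (112 to 155) and 269.8 CPM (250.3 to 290.3), against 12.8 CPM (8.79 to 17.9) and 126 CPM (89.3 to 172). RGS1 was at 198 and 282 CPM, against 19.7 and 9.66 CPM, and PLA2G16 at 212 and 175 CPM, against 23.6 and 16.1 CPM. The integrin chain ITGB1 was at 213 CPM (187 to 242) and 203 CPM (187 to 221), against 21.7 CPM (16.4 to 28.2) and 41.8 CPM (22.3 to 71.6), and the oxysterol receptor GPR183 had log2 ratios of 2.33 and 2.09. The integrin and chemokine receptor list, which does not hold ITGB1, had 0 of 9 higher and 0 lower on day 20, with a median of -0.54. On day 3 it had 2 of 9 higher and 1 lower, with a median of -0.42. S100A4 was higher in endogenous naive-like Tregs, at 1.96 and 2.44 on the log2 scale, and the cluster 4 members alone (211 and 349 CPM) were also above the transferred cells (77.4 and 93.4 CPM). The S100, annexin and cytoskeletal list, which holds S100A4 and ITGB1, mostly went the other way on day 20 but not clearly on day 3. On day 20 it had 3 of 20 members higher, 4 lower and 15 below 0, with a median of -0.55 (all genes -0.20). That median was -0.39 under TMM and -0.38 under named-gene scaling. On day 3 it had 3 of 20 higher, 4 lower and 14 below 0, with a median of -0.28, near that of all genes (-0.29). The day 3 median was 0.03 under TMM, the opposite sign, and -0.14 under named-gene scaling.

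SESN1, a stress-induced inhibitor of growth signalling, stood at 74.3 and 36.4 CPM in endogenous naive-like Tregs, against 6.97 CPM (4.13 to 11.01) and 9.66 CPM (1.99 to 28.2) in transferred ones. MT1M, a metallothionein, was at 103 CPM (85.4 to 124) on day 20, against 5.03 CPM (2.68 to 8.61), and reads may be shared with near-identical family members. Other scarce transcripts had few UMIs in transferred cells. Those were DNM3, a dynamin, with 69.1 CPM (54.7 to 86.1) in endogenous against 1.16 CPM (0.24 to 3.39) in transferred cells on day 20, the scaffold CNKSR3 at 55.9 CPM (43.1 to 71.4) against 1.55 CPM (0.422 to 3.97), and the lysophospholipid receptor GPR174 at 54.2 CPM (41.5 to 69.5) against 6.58 CPM (3.83 to 10.5).

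Lower in endogenous naive-like Tregs was CSF1, at 4.37 CPM (1.42 to 10.2) on day 20 and 7.58 CPM (4.63 to 11.7) on day 3, against 102 CPM (89.9 to 115) and 126 CPM (89.3 to 172) in transferred cells. NAA15, a subunit of the N-terminal acetyltransferase, was at 50.7 CPM (38.5 to 65.5) and 62.1 CPM (52.99 to 72.4), against 185 CPM (169 to 202) and 209 CPM (161 to 267), and HEBP2, a heme-binding protein, at 55.9 and 61.8 CPM, against 181 and 193 CPM. TNFRSF18 had a log2 ratio of -1.46 (day 20) and -0.96 (day 3), the adaptor DOK2 of -1.64 and -0.997, CLDND1 of -1.59 and -2.15, and the calcium pump ATP2B1 of -1.54 and -1.16. PTMS (-2.16 and -1.76) and the unconventional myosin MYO1F (-1.84 and -1.42) were lower too, and STRIP2 stood at 1.75 CPM (0.212 to 6.31) against 56.1 CPM on day 20. The pro-apoptotic gene BAX, from the list of p53 targets and apoptosis genes, was at 95.3 CPM (78.2 to 115) and 106 CPM (93.7 to 119) in endogenous naive-like Tregs, against 258 CPM (239 to 278) and 512 CPM (435 to 598) in transferred ones. Of that list, 2 of 7 measured members were higher and 2 lower on day 20, with a median of 0.06, and 2 of 9 higher and 3 lower on day 3, with a median of -0.64. The 2 higher ones on each day were SESN1 and the survival factor BCL2. IGKC, the immunoglobulin kappa chain, was at 23.6 and 18.2 CPM, against 109 and 177 CPM, and CST3 at 2.62 and 5.68 CPM, against 71.6 and 67.6 CPM. The 7 B cell markers summed to 74.3 and 97.8 CPM in endogenous and 149 and 258 CPM in transferred naive-like Tregs. The part of such RNA in these 2 genes was not tested, although both kept their day 20 call without the doublet-like cells.

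The Treg core list had 0 higher and 2 lower of 10 members on day 20 and a median of -0.28, and 1 higher and 2 lower of 12 on day 3 with a median of -0.26 (all genes -0.20 and -0.29). Under TMM scaling the day 3 median was 0.09, the opposite sign. CTLA4 was at 38.5 CPM (27.9 to 51.6) in endogenous and 24.4 CPM (18.7 to 31.2) in transferred cells on day 20, with overlapping intervals. The naive and quiescent list had 4 of 16 higher and 1 lower on day 20, IL7R, LEF1 (1.38), TCF7 (1.21) and BACH2 (1.83), a repressor of effector genes, being the 4, and SATB1, a chromatin organizer, the lower one (-1.07). On day 3 it had 2 of 14 higher and 1 lower, and its medians were 0.36 on day 20 and 0.11 on day 3.

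**Figure D4:**
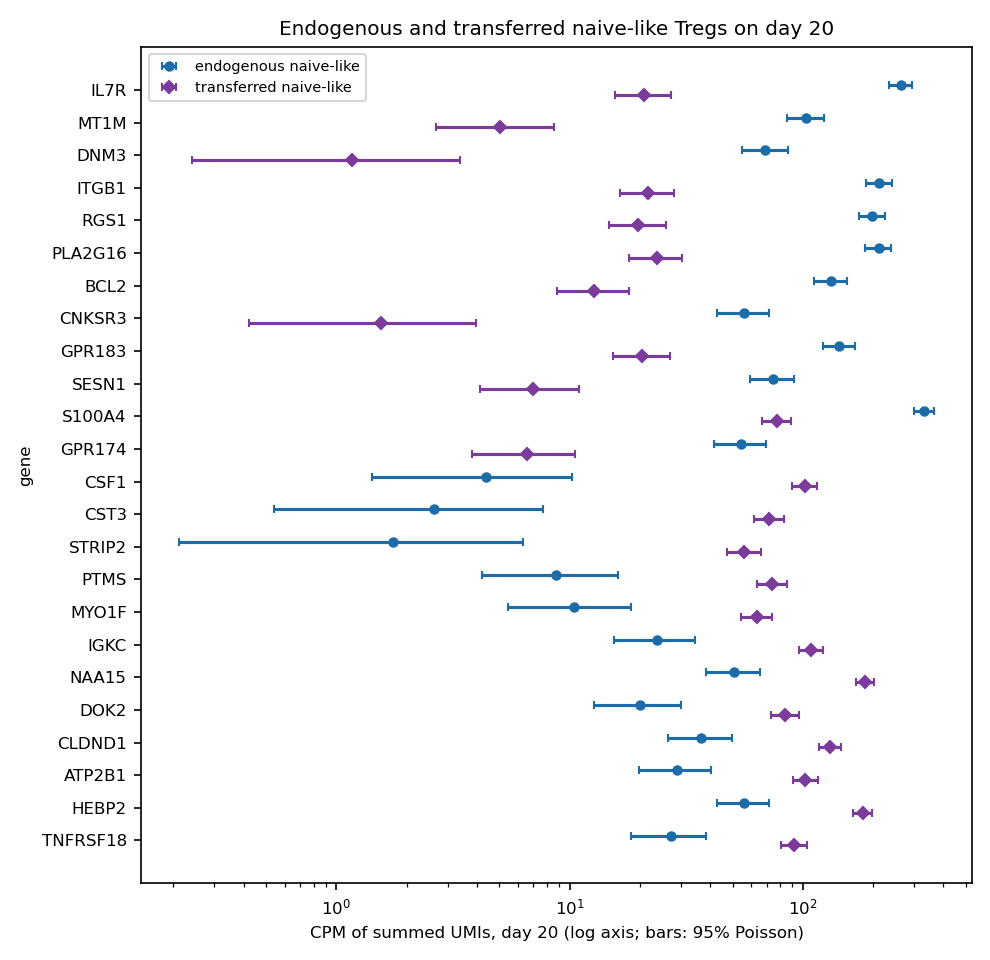
Levels in CPM of summed UMIs on day 20 (log axis) of the 12 genes per direction with the largest ratios between endogenous naive-like Tregs (circles) and transferred naive-like Tregs (diamonds), with 95% Poisson intervals. IL7R, at 263 CPM in endogenous and 20.9 CPM in transferred cells, heads the genes higher in endogenous cells, and CSF1, at 4.37 CPM and 102 CPM, those lower.

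The last comparison set the members of day 20 against those of day 3. Of 1741 genes, 58 (3.33%) were called higher and 9 (0.517%) lower on day 20, and the median of all genes was -0.04. With 1 library a day, day and library cannot be told apart. The lower genes were led by CISH, the STAT5-induced inhibitor of cytokine signalling, at 29.7 CPM (20.6 to 41.5) on day 20 and 259 CPM (240.1 to 279) on day 3, a log2 ratio of -2.76. MYB, a transcription factor of lymphocyte precursors, was at 6.12 CPM (2.46 to 12.6) on day 20 and 73.9 CPM (63.9 to 85.01) on day 3, and ID2, an inhibitor of helix-loop-helix factors, at 41.1 CPM (30.2 to 54.6) and 166 CPM (151 to 183). AIRE, known for the display of self antigens in the thymus, was at 21.9 CPM (14.1 to 32.3) on day 20 and 79.9 CPM (69.5 to 91.5) on day 3. LPL, lipoprotein lipase (-1.48), the lysophosphatidic acid receptor LPAR6 (-1.27), PRDM1 (-1.20) and CMTM6, a stabilizer of membrane proteins (-1.03), were the other named ones.

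Other classes of the same 2 libraries had part of this pattern. In effector Tregs, CISH was at 44.2 on day 20 and 363 on day 3 (CPM), and in the Tconv class at 88.3 and 141 CPM. The conventional libraries, which hold another sort of each day, had CISH at 86.8 on day 20 and 63.6 on day 3 (CPM). Transferred naive-like Tregs had 20.9 on day 20 and 296 on day 3 (CPM). MYB was at 11.2 on day 20 and 45.1 on day 3 (CPM) in effector Tregs and at 2.64 and 8.82 CPM in the Tconv class. LPL, by contrast, was at 14.9 and 59.1 CPM in naive-like Tregs, while effector Tregs had 1.499 and 0.601 CPM. Of the 9 genes, 6 were at least 2-fold lower on day 20 in effector Tregs as well, 0 in the Tconv class, 2 in transferred naive-like Tregs and 0 in the conventional libraries. These counts rest on CPM plus 10. Before the 10 CPM is added, MYB and AIRE also pass 2-fold in the Tconv class. AIRE was there at 15.1 on day 20 and 36.7 on day 3 (CPM). Over all genes, the calls lower on day 20 numbered 23 in effector Tregs and 2 in the Tconv class. They numbered 23 in transferred naive-like Tregs and 2 in the conventional libraries. Below 0 were 8 of the 9 genes in effector Tregs, 9 in the Tconv class, 4 in transferred naive-like Tregs and 3 in the conventional libraries.

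Most of the 58 genes higher on day 20 have no name, since 48 are identifiers without a symbol and 4 are ribosomal protein genes. The 48 took 11064 on day 20 and 4364 on day 3 (CPM), and their log2 ratios ran from 1.01 to 2.26, the highest being ENSMMUG00000045612 at 177 on day 20 and 29.2 on day 3 (CPM). Of the 58, 40 were at least 2-fold higher on day 20 in effector Tregs and 32 in the Tconv class of the same libraries, and 20 in transferred naive-like Tregs, but 0 in the conventional libraries, where the median of these genes was -0.42. Above 0 were 58 of the 58 in effector Tregs and in the Tconv class, 57 in transferred naive-like Tregs and 2 in the conventional libraries. Over all genes, the calls higher on day 20 numbered 72 in effector Tregs and 43 in the Tconv class. They numbered 79 in transferred naive-like Tregs and 1 in the conventional libraries. All identifiers without a symbol made up 14.9% of the members' UMIs on day 20 and 11.7% on day 3, against 12.3% and 13.8% in the conventional libraries. The 6 named ones were ZFP36L2, an RNA-binding protein that speeds mRNA decay, TSC22D3, the glucocorticoid-induced leucine zipper protein, DDIT4, an inhibitor of growth signalling, PFDN5, a prefoldin subunit, MT1M and NACA2. ZFP36L2 was at 236 CPM (209 to 266) on day 20 and 69.3 CPM (59.7 to 80.1) on day 3 (log2 ratio 1.63), TSC22D3 at 487 CPM (447 to 529) and 209.5 CPM (192 to 228), and DDIT4 at 75.2 CPM (60.1 to 92.8) and 29.2 CPM (23.02 to 36.5). PFDN5 (1.12), MT1M (1.37) and NACA2 (1.06) followed, of which NACA2 resembles NACA closely enough that reads may be shared.

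Few members of the gene lists passed 2-fold between the days. The naive and quiescent list had 14 of 16 members above 0 and 0 past 2-fold, with a median of 0.24, and the Treg core list had 8 of 10 below 0, 0 past 2-fold and a median of -0.28. FOXP3 and IL2RA had log2 ratios of -0.69 and -0.79, both short of the call, with intervals that did not overlap between the days. IL7R was at 0.69 and TCF7 at 0.65. By the levels given above, effector Tregs also had less IL2RA and more IL7R on day 20 than on day 3. FOXP3 was lower there too, with overlapping intervals, while IL2RA barely differed between the days in the Tconv class. The effector Treg list had 2 of 10 lower, ID2 and PRDM1, and a median of -0.52. In the interleukin 2 and STAT5 list, 1 of 7 was lower, CISH, and the median was -0.37, with the uncalled BCL2 at -0.98. These 4 medians kept their sign under both scalings.

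**Figure D5:**
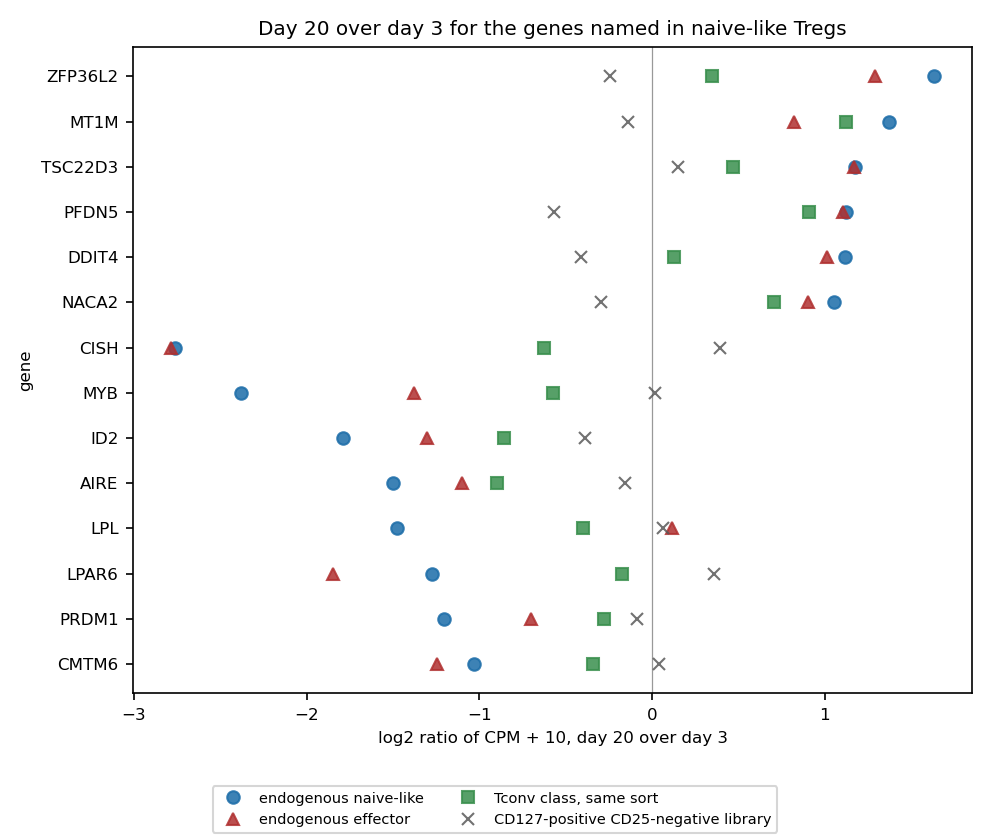
Log2 ratio of CPM plus 10, day 20 over day 3, of the 6 named genes higher and 8 named genes lower on day 20 in endogenous naive-like Tregs (circles), with the same genes in effector Tregs (triangles), the Tconv class (squares) and the CD127-positive CD25-negative libraries (crosses). CISH stands at -2.76 in naive-like and -2.78 in effector Tregs, and the conventional libraries lie within 2-fold for every gene shown.

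Most cells that carry the name outside the CD25high CD127low sort had another class in the authors' annotation than the members inside it. Of the 40 in the CFSE-positive library of day 20, 27 were classed as transTreg, 9 as Tconv and 4 as endoTreg, and of the 21 of day 3, 9 as transTreg and 12 as Tconv. All members of the CD25high CD127low sort were classed as endoTreg. The 40 and 21 cells held 93288 and 50203 UMIs, and 0 and 1 of their barcodes also occurred in a CD25high CD127low library. On day 3 the red cell gene HBB made up 92106 CPM of the 21 cells, which lowers the CPM of their other genes. FOXP3 stood at 107.2 CPM (51.4 to 197) on day 20 and 59.8 CPM (12.3 to 175) on day 3, IL7R at 161 CPM (90.0 to 265) and 199 CPM (95.5 to 366), and BAX at 332 CPM (226 to 472) and 219 CPM (109.4 to 392). The BAX levels lay above those of the members in the CD25high CD127low sort, 95.3 on day 20 and 105.7 on day 3 (CPM). The intervals overlapped on day 3 but not on day 20. In turn 64 cells on day 20 and 13 on day 3 of the CD25high CD127low sort carried the transferred naive-like name. On day 20 they had S100A4 at 3302 CPM (3009 to 3617), against 77.4 CPM in the transferred naive-like Tregs of the CFSE-positive sort.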

How the data were processed

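Single CD4-enriched cells from cryopreserved blood of rhesus macaques were sorted into 4 populations a day, and libraries followed the 10x 3' v2 chemistry, per the labels' protocols. The submitters' processing notes name Cell Ranger 2.1.1; which genome build was used is not given in the sources used here. UMI counts were deposited per gene and cell for 16429 genes and 25397 cells, not normalized, with the authors' annotation of each cell. Of the identifiers, 309 were named from a reference table and 2821 stayed without a symbol.

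Counts were summed per class and library and scaled to CPM. Log2 ratios used a pseudocount of 10 CPM, a call needed 2-fold and 50 CPM in either class, and the comparisons with effector Tregs and the Tconv class needed both days. List members were measured at 20 CPM or more. Up to 12 called genes per direction were named by size of ratio, leaving out ribosomal, mitochondrial and unnamed ones. A gene that this rule selects is not reported here. Doublet-like cells had 3 or more UMIs of platelet, monocyte, B cell or red cell markers, or more than 2 times their library's median total. The members and lists were chosen with earlier results of these data known. Intervals used scipy 1.17.1, TMM factors edgeR 4.0.16, and Python 3.11.15 and R 4.3.3 ran the rest. The steps were checked on simulated data. Alternatives were TMM and named-gene scaling, no filter on expression, pseudocounts of 1 and 30 CPM, leaving out doublet-like cells and the mean of per-cell CPM.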

Additional observations from a re-analysis of the deposited data

How the results depend on the processing

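No named gene changed direction under the 7 alternatives, and no replicate could be left out. Against transferred naive-like Tregs, the day 3 medians of the Treg core list and of the S100, annexin and cytoskeletal list changed sign under TMM scaling. No paired analysis was possible because each population had 1 library a day and no test was made. Against effector Tregs, the 13 higher and 201 lower genes became 48 and 69 under TMM scaling and 70 and 66 under named-gene scaling, 118 were lower with a pseudocount of 30 CPM, and 21 were higher without the expression filter. Against the Tconv class, 3 genes instead of 5 were higher with a pseudocount of 30 CPM and 26 instead of 12 lower without the filter. Against transferred naive-like Tregs, 61 instead of 39 were higher without the filter, and the 56 lower genes became 30 under TMM, 28 under named-gene scaling, 91 and 23 with pseudocounts of 1 and 30 CPM, and 131 without the filter. For day 20 over day 3, a pseudocount of 30 CPM left 29 of 58 higher and 5 of 9 lower, and 16 were lower without the filter. Thinning to 1000 UMIs gave shares on day 20 and day 3 of 7.28% and 10.9% for FOXP3, 23.8% and 37.0% for IL2RA and 20.9% and 12.7% for IL7R. A pseudocount of 30 CPM ended the call of TCF7, DPP4, BEX4, CD69, CD9, RTKN2, EGLN3, CYSLTR1, DDIT4, NACA2, LPL, PRDM1 and CMTM6. RTKN2 also lost it by per-cell mean, CYSLTR1 by per-cell mean, NACA2 under TMM, and CMTM6 under named-gene scaling and without doublet-like cells. The cause was not tested beyond what each alternative changes.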
